A study of Rattus norvegicus with 24 samples.

Results

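The ventral tegmental area (VTA) was compared with the nucleus accumbens (NAc) inside the same fentanyl-treated rats. All fentanyl rats with a library from each region were taken, which gave 12 of the 24 libraries in the series, from 6 of its 14 rats. In the labels N1, N2 and N3 are male and L1, L2 and L7 are female Sprague Dawley rats. The VTA libraries and the NAc libraries therefore share animal, drug history and sex, and each VTA value has its own NAc value beside it. All 6 rats had received fentanyl (a synthetic opioid agonist), in a study of opioid withdrawal and of choice between fentanyl and food. They were decapitated without anaesthesia at the hour of a last choice session, which was not run. No age and no dose of these rats is stated in the material at hand. Saline rats and fentanyl rats with 1 region were not used, so the comparison describes brain regions in fentanyl rats and holds no estimate of a drug effect.

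The VTA is the midbrain area that holds dopamine neurons, with GABA and glutamate neurons among them. These neurons send axons to the NAc, the ventral part of the striatum, where most neurons are GABAergic spiny projection neurons that carry dopamine receptors. Opioids act on this pathway in both regions. Messenger RNA stays largely in the cell body, so a punch of each region samples mostly the RNA of the cells that live there.

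Tissue came from bilateral punches of coronal slices, with a 16 gauge needle of 1.19 mm internal diameter for the VTA and a 12 gauge needle of 2.16 mm for the NAc. Total RNA was depleted of ribosomal RNA and read as pairs of 150 nt, and the RNA integrity numbers of the series ran over 8.0 to 9.2. Punch size changes with the region in every rat, so region and punch cannot be told apart. In punches of mixed tissue, fewer cells of a type and less RNA per cell cannot be told apart either. The features carry Ensembl rat identifiers, and the annotation used here pairs 0 of the 32552 with a gene symbol. Genes are therefore given by identifier and by position in the deposited tables (the build is not stated in them), without names or roles. For the same reason neither region could be checked against named marker genes.

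The libraries held 4.49 M to 6.30 M counts for VTA and 3.54 M to 4.72 M counts for NAc, with the VTA library the deeper in 6 of 6 rats. Features of chromosome Y held 1005 to 1757 counts in the male libraries and 9 to 31 in the female ones. On the first principal component, which held 76.7% of the variance, VTA libraries lay at 41.3 to 51.6. The NAc libraries lay at -54.1 to -46.3, except that of rat L2, at -28.8. Levels are given as CPM (counts scaled to the size of the library), with 1 VTA and 1 NAc value per rat. A gene was called at a Benjamini-Hochberg adjusted p under 0.05 over all genes tested.

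Rat L2 differed from the other 5 rats in both of its libraries, though not on every measure. Its library labelled VTA was at least 10-fold below the lowest of the other VTA libraries at 17 transcripts that all 5 of those held at 5 CPM or more. The same screen found 2 such transcripts in the VTA library of rat N1, and 0 in each of the remaining 10 libraries. A reverse screen took transcripts at 5 CPM or more and at least 10-fold above the other 5 libraries of the region. It found 9 in the VTA library of L2, 9 in that of L7 and 0 to 2 in each of the remaining 10. On the first principal component the VTA library of L2, at 45.3, lay inside the range of the other VTA libraries. Of the 17, 15 were at least 10-fold higher in the VTA libraries of the other 5 rats than in the mean of the NAc libraries. The summed level of those 15 was 14.98 CPM in the VTA library of rat L2. It was 2261, 2925, 3611, 2054 and 2079 CPM in the VTA libraries of L1, L7, N1, N2 and N3, against 7.18 to 23.3 CPM in the 6 NAc libraries. The 15 were picked as low in the VTA library of L2 and low in NAc, so the wide gap to the other VTA libraries follows from the choice. As a description only, the sum in the VTA library of L2 lay inside the NAc range. Taken singly, 9 of the 15 lay inside the range of the NAc libraries, 4 lay above every NAc library and 2 below every one.

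The 15 transcripts averaged 7.28 to 919 CPM in the other VTA libraries, where the screen itself required 5 CPM or more. The 17 lie on 11 chromosomes. The most abundant was ENSRNOG00000017302, a feature of 15 exon blocks on chromosome 1 (32321580 to 32363983, minus strand). Its level was 847, 2.53, 959, 1293, 662 and 835 CPM in the VTA libraries of L1, L2, L7, N1, N2 and N3, against 3.51, 1.81, 0, 0, 0.247 and 1.03 CPM in their NAc libraries. The VTA of every other rat held at least 662 CPM, and rat L2 alone had a VTA value near its NAc value. A pair of neighbouring features on chromosome 16 (68860018 to 68866718 and 68875709 to 68913628) were both among the 17. The second of them held 1.36 CPM in the VTA library of L2 and 203 CPM on average in the VTA libraries of the other 5 rats, against a mean of 0.361 CPM in the NAc libraries. Total counts of that VTA library, at 4.86 M, lay inside the range of the others. What set it apart was not tested, and the main results are given with and without rat L2.

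**Figure D1:**
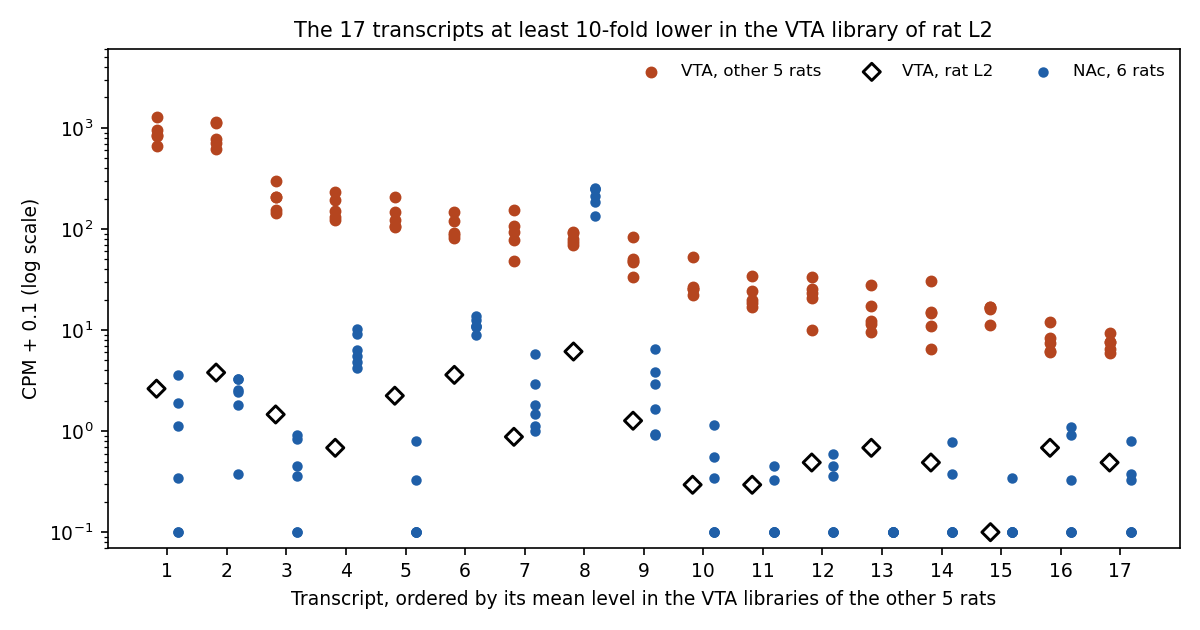
Levels of the 17 transcripts in the VTA library of rat L2 (diamonds), the VTA libraries of the other 5 rats (left points) and the 6 NAc libraries (right points), as CPM plus 0.1 on a log axis. As the screen requires, the diamonds lie at least 10-fold under every other VTA point. For 15 of the 17 the NAc points lie far below the VTA points of the other 5 rats too. The eighth transcript is higher in NAc.

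The first comparison asked which transcripts differ between the VTA and the NAc of a rat. With 6 rats, 7173 of 12852 tested genes were called (55.8%). In VTA 3653 were higher (28.4% of those tested) and 3520 were lower (27.4%), by edgeR's quasi-likelihood test with rat as a block. The median log2 fold change, VTA minus NAc, was 0.79 among the genes called higher in VTA and -0.77 among those called lower. Over all genes tested it was 0.02. All 6 VTA values lay above all 6 NAc values at 1987 genes (15.5% of those tested), and all 6 NAc values lay above all 6 VTA values at 2198 (17.1%).

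Most called differences were modest. A test against a 2-fold threshold in the same fit (edgeR's glmTreat) called 1239 genes (9.64%). Of these, 523 were higher in VTA (4.07%) and 716 were lower in VTA (5.57%). Their median log2 fold changes were 1.97 and -2.15. The sign was the same in all 6 rats for 520 of the 523 and for 714 of the 716. The VTA and NAc values did not overlap for 484 of the genes higher in VTA and 708 of those lower in VTA. These genes were chosen on the same 6 rats, so both sets of counts follow largely from the choice. Over all 12852 genes tested, 3148 were higher in VTA in all 6 rats and 3158 were higher in none. Among the genes called at any size, 41 were over 16-fold higher in VTA and 85 were over 16-fold lower.

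Without rat L2 the number past 2-fold was 1450 of 12785 tested genes (11.3%), with 689 higher in VTA (5.39%) and 761 lower in VTA (5.95%). Both fits shared 496 genes higher in VTA and 689 lower in VTA. Of the genes past 2-fold without L2, 31 of those higher in VTA and 6 of those lower were not tested when L2 was in, since they missed the filter on low counts. The change was uneven by direction. Genes over 16-fold higher in VTA numbered 81 without L2, against 41 with it, while those over 16-fold lower numbered 90, against 85.

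**Figure D2:**
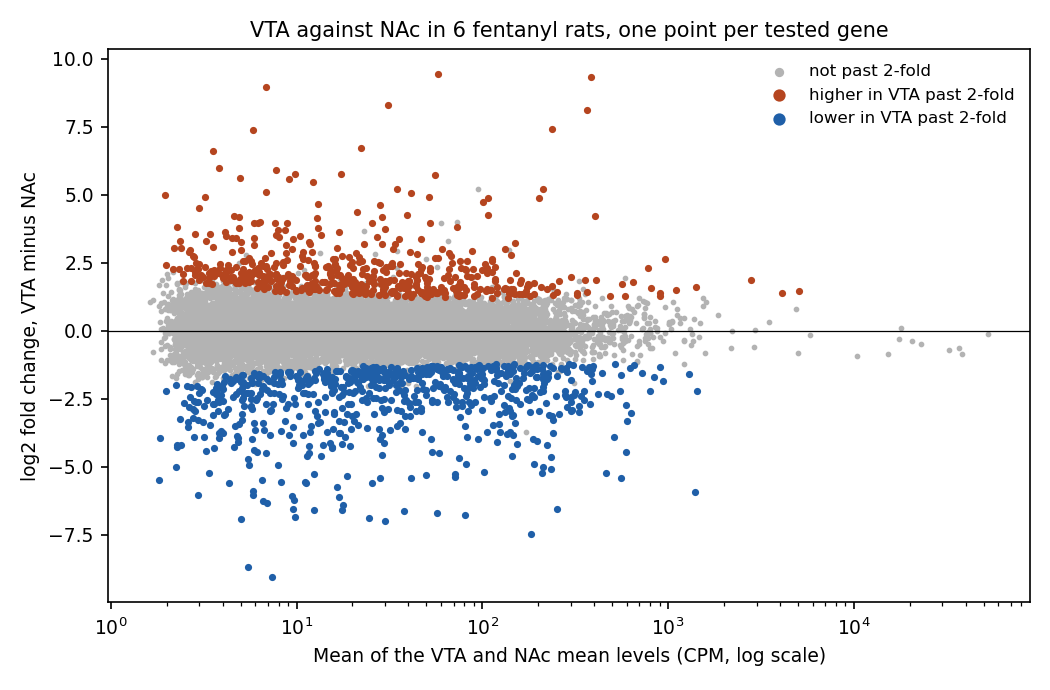
Log2 fold change, VTA minus NAc, against mean level in CPM (log axis) for each of the 12852 genes tested in 6 rats. Coloured points are the 523 genes higher and the 716 lower in VTA past 2-fold; they occur at low and at high levels, and the most extreme points on either side are about 9 on the log2 scale.

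These genes took up very different shares of the RNA outside the mitochondrial features. The 523 genes higher in VTA held 8.10% to 10.2% of those counts in the VTA libraries. They held 2.07% to 2.78% in 5 NAc libraries and 3.86% in the NAc library of L2. The 716 genes lower in VTA held 2.90% to 3.52% of the counts in the VTA libraries, against 13.04% to 15.1% in 5 NAc libraries and 10.6% in the NAc library of L2. The NAc library of L2 was the nearest to the VTA libraries on both measures. Since these genes were chosen on the same libraries, the shares are a description only.

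The widest differences were transcripts present in one region and at or near 0 in the other. ENSRNOG00000012283, the first of the neighbouring pair on chromosome 16 (68860018 to 68866718, plus strand, 6 exon blocks), had the largest called rise in VTA. Its levels were 108, 2.14, 148, 207, 105 and 123 CPM in the VTA libraries of L1, L2, L7, N1, N2 and N3, against 0.702, 0.226, 0, 0, 0 and 0 CPM in their NAc libraries. All VTA values lay above all NAc values, though that of L2 was under 3 CPM. The log2 fold change was 9.42 ± 0.41 (SE; edgeR adjusted p = 1.77e-08), 9.97 without L2 and 10.50 without L1, whose NAc library holds 2 of the 3 NAc counts. It was 12.48 in males alone, where no NAc library holds a count, so this value depends on the prior count. In reads, 4066 counts in VTA stood against 3 in NAc, a ratio of 895 with a 95% exact interval of 306 to 4340 that covers counting error only.

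ENSRNOG00000017302, described above, was the first gene by size when L2 was left out. Its log2 fold change was 9.33 ± 1.06 with 6 rats (SE; edgeR adjusted p = 0.000827) and 10.04 ± 0.46 without L2 (SE; adjusted p = 2.28e-06). ENSRNOG00000056580 lies on chromosome 13 (36532758 to 36537093, plus strand, 6 exon blocks). It held 17.5, 3.50, 15.6, 17.9, 17.8 and 9.88 CPM in the VTA libraries of L1, L2, L7, N1, N2 and N3, and 0 CPM in all 6 NAc libraries. Here too L2 had the lowest VTA value, yet it was above the NAc of every rat. With 478 counts in VTA and none in NAc, the level was at least 105-fold higher in VTA, taking 3 counts over the 6 NAc libraries as the limit (log2 fold change 8.96 ± 0.54 SE, edgeR adjusted p = 5.83e-07). As no NAc library holds a count, this log2 fold change and its SE depend on the prior count.

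On the NAc side, ENSRNOG00000059628 lies on chromosome 2 (32530316 to 32553340, minus strand, 2 exon blocks). It was at 0 CPM in all 6 VTA libraries, against 31.6, 8.58, 17.5, 11.6, 10.1 and 9.24 CPM in the NAc libraries of L1, L2, L7, N1, N2 and N3. Taking 3 counts over the VTA libraries as the limit, it was at least 157-fold lower in VTA (0 against 311 counts; log2 fold change -9.06 ± 0.51 SE, edgeR adjusted p = 3.39e-07). ENSRNOG00000028348, on the same chromosome (260574190 to 260596777, minus strand, 8 exon blocks), was also at 0 CPM in every VTA library. Its NAc levels were 7.37, 26.4, 5.47, 7.46, 11.4 and 7.70 CPM in L1, L2, L7, N1, N2 and N3. It was at least 132-fold lower in VTA (0 against 261 counts; log2 fold change -8.66 ± 0.56 SE, edgeR adjusted p = 9.57e-07). Rat L2 gave much of this, and without it the bound was at least 76.9-fold (0 against 144 counts). For both genes the log2 fold change and its SE depend on the prior count, as no VTA library holds a count. Both were the first 2 by size on this side with and without L2, and no VTA library, that of L2 included, held a count of either. No other feature in the tables overlaps any of these 5.

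**Figure D3:**
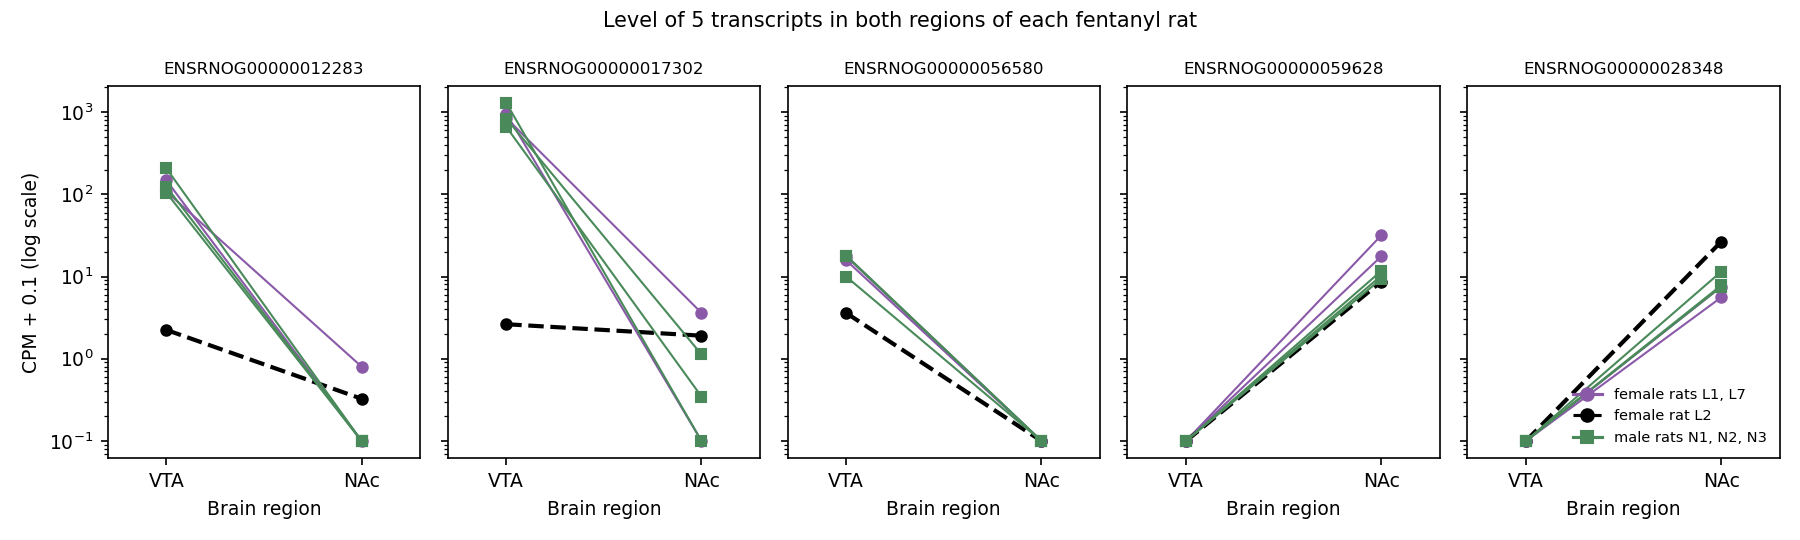
Levels of 5 transcripts in the VTA and the NAc of each fentanyl rat, as CPM plus 0.1 on a log axis, with a line joining the libraries of a rat (female circles, male squares, L2 dashed). In the first 3 panels VTA lies above NAc in every rat, with L2 lowest in VTA; in the last 2 every VTA value is 0.

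To see how well the region difference carried over from animal to animal, genes past 2-fold were chosen in 5 rats and read in the sixth. For the genes chosen as higher in VTA, the median within-rat log2 difference in the sixth rat was 1.99 in L1, 2.16 in L7, 1.59 in N1, 1.85 in N2 and 2.12 in N3. In L2 it was 1.11, against 1.90 in the 5 rats that chose the genes. The share of these genes over 2-fold in the sixth rat was 55.9% in L2 and 78.6% to 97.1% in the others. These shares are over different sets, of 689 genes for L2 and 416 to 543 for the others. Only the set for L2 was chosen without L2, so the shares are not strictly alike. Genes chosen as lower in VTA had medians of -2.03 to -2.22 in the other rats and -1.80 in L2. The direction held for 90.6% of the VTA-high genes in L2 and for 99.1% to 100% in the others.

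The shortfall in L2 had 2 measurable sides. Over the 689 genes higher in VTA in the other 5 rats, the VTA library of L2 lay a median of 0.12 log2 units under the other VTA libraries. Its NAc library lay 0.65 above the other NAc libraries. For the 388 of these genes with a difference under 4-fold in the other rats, the VTA library of L2 was 0.00 log2 units apart from the other VTA libraries and its NAc library was 0.57 above the other NAc libraries. For the 49 genes over 16-fold, the VTA library of L2 was 3.06 log2 units below the other VTA libraries and its NAc library 1.00 above the other NAc libraries. The within-rat difference of those 49 genes had a median of 1.12 on the log2 scale in L2, against 4.87 in the other 5 rats. On the NAc side the 68 genes over 16-fold kept a median difference of 4.27 log2 units in L2, against 4.73. In the VTA library of L2, 17 of the 49 genes lay over 10-fold below the mean of the other VTA libraries, against 4 of the 252 genes with a difference of 4- to 16-fold and 0 of the 388 under 4-fold. Of the 17 transcripts screened earlier as low in that library, 16 were past 2-fold without L2. The low values of the widest genes therefore partly restate that screen and are no separate result.

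**Figure D4:**
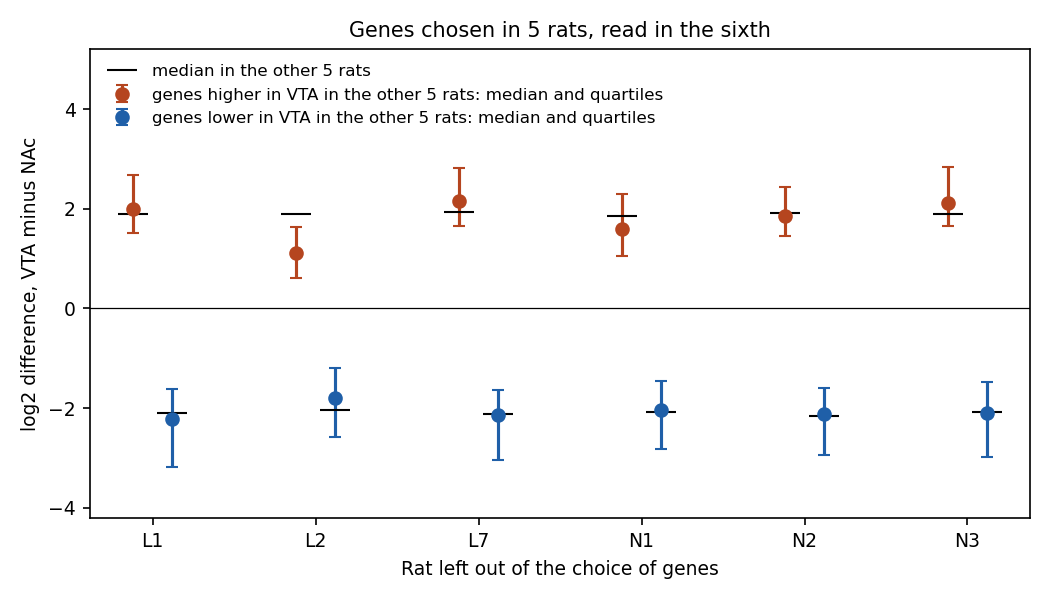
Median and quartiles of the log2 difference, VTA minus NAc, in each rat, for genes past 2-fold in the other 5 rats (black dashes mark the median in those 5). Rats other than L2 lie at 1.59 to 2.16 for genes higher in VTA, and L2 lies at 1.11; for genes lower in VTA all 6 lie between -2.22 and -1.80.

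Precision followed level. The SD of the 6 within-rat log2 differences had a median of 0.69 over the 1952 genes under a mean of 5 CPM and of 0.22 over the 1783 genes at 100 CPM or more. Of the high group 75.5% were called, and of the low group 33.4%.

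The second comparison asked whether the difference between VTA and NAc depended on sex, with 3 female and 3 male rats. No gene was called by edgeR's quasi-likelihood interaction test (0 of 12852, 0.0%). The lowest adjusted p was 0.975, and 594 genes (4.62%) had an unadjusted p under 0.05. DESeq2 and limma voom each called 0 as well. Without rat L2, 1 gene was called. With no filter on low counts 62 were called.

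Fitted apart, females had 838 genes past 2-fold (6.43%) and males 1202 (9.17%). In females 297 were higher (2.28%) and 541 lower (4.15%) in VTA, and in males 538 were higher (4.11%) and 664 lower (5.07%). Rat L2 is 1 of the 3 females. All 496 of the genes higher in VTA in males that were tested in females had the same sign there, and 209 were also past 2-fold. The same was true of the sign of all 638 genes lower in VTA in males, of which 451 were past 2-fold in females. Across the 12674 genes tested in both sexes, the log2 fold changes correlated at r = 0.913, a description across genes, which are not independent replicates. The lower count in females was not tested as a difference between the sexes.

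The genes with the smallest interaction p are given as values only, since all had an adjusted p of 0.975. All 4 were among the 62 called with no filter on low counts, at edgeR adjusted p of 0.00331, 0.0258, 0.00480 and 0.00324 in the order given here. That fit gave far smaller p-values for the region too. For ENSRNOG00000012283 its edgeR adjusted p was 2.74e-267, against 1.77e-08 with the filter, at log2 fold changes of 9.44 and 9.42. In all other settings the interaction adjusted p of the 4 genes was 0.357 (DESeq2) or more, apart from 1 value without L2 given below. ENSRNOG00000018282 (chromosome 1, 238982392 to 239057732) was far lower in VTA in every rat. It held 6.58, 6.81 and 10.1 CPM in the VTA of females L1, L2 and L7, against 206, 169 and 199 CPM in their NAc. In males N1, N2 and N3 it held 3.29, 4.08 and 2.52 CPM in VTA, against 211, 193 and 211 CPM in NAc. The female VTA values lay above the male ones, and the interaction was 1.33 ± 0.26 on the log2 scale (SE, females minus males; edgeR's unadjusted p = 0.000258, adjusted p = 0.975). A feature on the opposite strand overlaps it.

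ENSRNOG00000023548 (chromosome 9, 100380515 to 100437056) was at 13.2, 15.9 and 47.1 CPM in the VTA of the 3 females, against 7.72, 9.03 and 13.9 CPM in their NAc. In males it was at 10.7, 11.2 and 10.5 CPM in VTA, against 12.7, 11.1 and 14.6 CPM in NAc. ENSRNOG00000020674 (chromosome 10, 89352835 to 89356547) had differences of opposite sign in the sexes. It was at 234, 160 and 195 CPM in the VTA of females, against 452, 254 and 252 CPM in their NAc. In males it was at 206, 191 and 228 CPM in VTA, against 167, 168 and 185 CPM in NAc. The within-rat difference was negative in 3 of 3 females and positive in 3 of 3 males, with an interaction of -0.93 ± 0.18 on the log2 scale (SE). ENSRNOG00000032997, a mitochondrial feature of 69 nt (14062 to 14130, minus strand), held 204, 176 and 109 CPM in the VTA of females, against 507, 257 and 248 CPM in their NAc. In males it held 151, 147 and 157 CPM in VTA, against 163, 152 and 159 CPM in NAc, so the regions were close in males. It was the 1 gene called without L2, at an edgeR adjusted p of 0.0499.

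The mitochondrial genome encodes a few subunits of the respiratory chain, along with the ribosomal and transfer RNAs that translate them. Features of the mitochondrial chromosome held 23.8% ± 2.46 of all counts in VTA and 30.002% ± 3.59 in NAc (SD, n = 6 rats). No feature is listed between positions 67 and 1026 or between 1093 and 2665, so the share does not cover the whole mitochondrial genome. The VTA shares were 26.9%, 25.7%, 21.4%, 21.3%, 22.1% and 25.4% in L1, L2, L7, N1, N2 and N3, against NAc shares of 36.7%, 30.98%, 29.4%, 28.2%, 27.8% and 26.9%. The share was lower in VTA in 6 of 6 rats, though the ranges of the regions almost touched. The mean within-rat difference was -6.20 ± 2.83 percentage points (SD; exact two-sided sign-flip permutation p = 0.03125, the smallest that 6 pairs allow). The difference was -7.72 points in females and -4.68 in males, and the sexes were not shown to differ (exact permutation p = 0.3, with 0.1 the smallest possible). The VTA libraries were also the deeper ones and came from the narrower punch, and the part of these in the share was not tested.

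Long mitochondrial features were then taken one by one. All 13 features of 200 nt or more were tested, and 3 did not pass the test. In VTA 10 were lower (76.9%, against 27.4% of all genes) and 0 were higher (against 28.4% of all genes). The median log2 fold change of the 13 was -0.64, with a range of -0.86 to 0.11, and the median was -0.66 without L2. The most reduced was the feature at 11736 to 13565, at 26853 ± 3851 CPM in VTA and 49293 ± 12586 CPM in NAc (SD, n = 6 each). The feature at 5323 to 6867, the most abundant in VTA, did not pass the test, with 50878 ± 7526 CPM in VTA and 54618 ± 7163 CPM in NAc (SD, n = 6 each). Features at 7758 to 7961 and 7919 to 8599 overlap, so each may carry reads of the other.

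Of the 22 mitochondrial features under 100 nt, 14 were tested. Of these 3 were higher (21.4%) and 5 lower (35.7%) in VTA, near the 28.4% and 27.4% of all genes. The lower ones at 6865 to 6933 and 14062 to 14130 were not called without rat L2 (edgeR adjusted p = 0.0895 and 0.106). All 3 that rose lie close together on the minus strand. The feature at 5185 to 5252 held 74.7 ± 19.9 CPM in VTA and 26.4 ± 4.59 CPM in NAc (SD, n = 6 each; log2 fold change 1.48 ± 0.17 SE, edgeR adjusted p = 1.41e-05). The feature at 5081 to 5152 held 281 ± 41.2 CPM in VTA and 125 ± 16.7 CPM in NAc (SD, n = 6 each; log2 fold change 1.17 ± 0.10 SE, edgeR adjusted p = 2.53e-07). Both were higher in VTA in 6 of 6 rats, while the long feature before them (3904 to 4942) was lower and the one after them (5323 to 6867) did not pass the test. The third, at 5010 to 5078, was higher in 5 of 6 rats, with a log2 fold change of 0.58 ± 0.19 (SE; edgeR adjusted p = 0.0239). As background, RNA this short is largely lost in purification on columns; its part in these values was not tested.

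**Figure D5:**
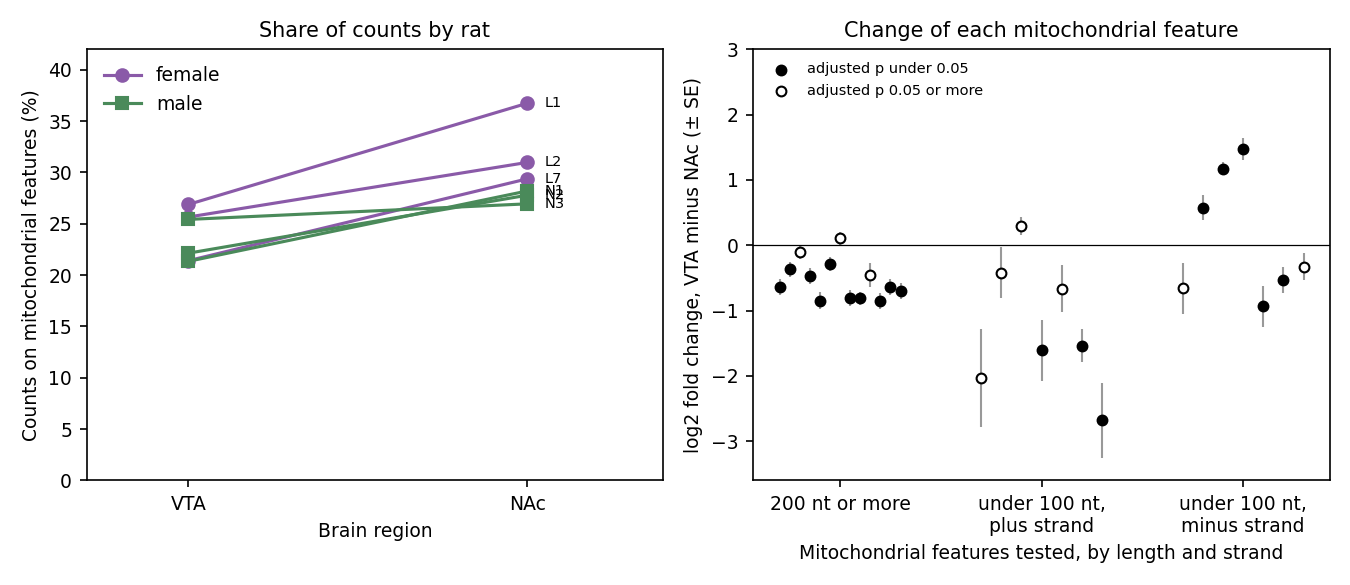
Left, percent of counts on mitochondrial features in VTA and NAc, with a line per rat; the line runs higher in NAc for all 6 rats. Right, log2 fold change, VTA minus NAc (± SE), of each tested mitochondrial feature by length and strand; 10 of 13 long features were called lower in VTA, and 3 short minus-strand features were called higher.

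Outside the mitochondrial chromosome, short features were examined as a group. Of 297 single-exon features under 500 nt, 17 were higher (5.72%) and 132 were lower (44.4%) in VTA, against 28.4% and 27.4% of all genes tested. Their median log2 fold change was -0.58, and the median was negative in every rat, from -0.67 to -0.35. They held 0.959% ± 0.235 of counts in VTA and 1.10% ± 0.210 in NAc (SD, n = 6 each). Such features include small RNAs and processed pseudogenes in rat annotation, so reads from near-identical copies may be split among them.

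By the length of the gene, counts in each direction also varied. Of 108 genes spanning 500 kb or more, 30 were higher in VTA (27.8%, near the 28.4% of all genes). In VTA 52 were lower (48.1%, against 27.4% of all genes). Past 2-fold, 12 were lower (11.1%, against 5.57% of all genes) and 6 were higher (5.56%, against 4.07%). Their median log2 fold change was -0.29, from -0.37 to -0.10 in the 6 rats. Among the 1727 genes of 100 to 500 kb, 161 were lower past 2-fold (9.32%, against 5.57% of all genes) and 75 were higher (4.34%, near the 4.07% of all genes). Of 2779 genes of 2 to 10 kb, 555 were lower in VTA (19.97%, against 27.4% of all genes) and 859 were higher (30.9%, near the 28.4% of all genes), with a median of 0.13. Chromosome X genes had a median of -0.15 (99 higher, 21.8%, and 157 lower, 34.6%, of 454), and of -0.09 without rat L2. The X median was -0.31 in L2 and between -0.14 and 0.00 in the other rats. The autosomes lay between -0.10 and 0.12 with all rats. Without L2 chromosome 18 had a median of -0.11, below that of chromosome X.

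The genes past 2-fold were also read in their order along the chromosomes. No stretch of 3 or more neighbouring tested genes was higher in VTA past 2-fold throughout. There were 14 such stretches lower in VTA, with 43 genes in all: 13 of 3 genes and 1 of 4. The stretch of 4, on chromosome 7 (33702770 to 34121694), summed to 108 ± 10.01 CPM in VTA and 686 ± 129 CPM in NAc (SD, n = 6 each). A stretch on chromosome 8 (119566509 to 120446507) summed to 90.8 ± 13.9 CPM in VTA and 3031 ± 1028 CPM in NAc. One on chromosome 4 (32333356 to 32392007) summed to 0.661 ± 0.390 CPM in VTA and 69.4 ± 12.5 CPM in NAc, with each of its genes lower in VTA by 6.60 to 6.91 on the log2 scale. Untested genes may lie between the members of a stretch, and genes this close can share reads where they overlap.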

How the data were processed

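RNA was sequenced from punches of VTA and NAc of 6 fentanyl rats. The authors deposited whole-number counts, not normalized, with a table for each library and a row for each Ensembl rat identifier. Per the submitters' processing notes, the tools were STAR 2.5.2b, Trimmomatic 0.36, Subread 1.5.2, featureCounts and DESeq2, in an order that the notes leave out. Neither the notes nor the tables state the build, the strand setting or how multiply mapped reads were handled.

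Counts were fitted in edgeR 4.0.16 (R 4.3.3) with TMM scaling, filterByExpr on region, robust dispersion and a quasi-likelihood fit with rat as a block, VTA minus NAc. Change past 2-fold used glmTreat on the same fit, and the sex difference an interaction term. Calls used a Benjamini-Hochberg adjusted p under 0.05. The SE of an edgeR log2 fold change was worked back from the test, as its absolute value divided by the square root of the F statistic. CPM were computed with the TMM factors. The within-rat log2 differences used a prior count of 2, with 1 exception. For genes chosen with a rat left out and read in that rat, a small fixed CPM value was added before the log instead. The mitochondrial share was tested by exact permutation. Scripts were tested on simulated data. Alternatives used DESeq2 1.42.0, limma 3.58.1 (voom), RLE scaling, other filters, equal depth of 3.54 M, left-out rats and single sexes.

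Pairing comes from the animal code. Residuals around the mean of each region and sex correlated weakly between the regions of a rat, at a mean of 0.0762 over 6 rats (-0.0387 to 0.141). The mean over 12 pairs of different rats of a sex was -0.0380. Residuals within a region and sex cancel over its rats, so this second mean follows largely from the first and is no independent reference. No 2 libraries of a group were copies. Whether the labels' animals are independent litters is not stated, so p-values measure the spread between these rats.

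Members and lists were chosen with earlier results of these data known. Gene lists and markers could not be used, because no table pairs the identifiers with symbols. Named genes were the 2 with the largest change each way past 2-fold, at 5 CPM or more in the higher region and without overlap between regions, and the 2 lowest sex-interaction p each way. The screen of rat L2 and the groups by position, span and length were chosen after values were seen.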

Additional observations from a re-analysis of the deposited data

Results flagged for a closer look

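In 34 sets of 6 values, one per rat, 8 values stood far from the other 5. The rule used sets apart about 1 in 20 by chance, but only for independent values that follow a normal distribution. These sets come from the same libraries, and their genes were named for large changes or low p in these data. The 8 values are therefore a description, and whether they exceed chance was not tested. The NAc library of rat L2 was at -28.8 on the first principal component, nearer to VTA than the other NAc libraries. The same library held 26.4 CPM of ENSRNOG00000028348, against 5.47 to 11.4 CPM in the other NAc libraries. Rat L7 had the highest share of counts on short single-exon features in both regions, at 1.41% in VTA and 1.501% in NAc. It also held 47.1 CPM of ENSRNOG00000023548 in VTA, above 10.5 to 15.9 CPM in the VTA of the other rats. In the NAc library of rat L1, ENSRNOG00000020674 was at 452 CPM, ENSRNOG00000032997 at 507 CPM and ENSRNOG00000012283 at 0.702 CPM, each the highest among the NAc libraries. The last of these is 2 counts.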

How the results depend on the processing

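With 6 rats, 7173 genes were called and 1239 passed 2-fold. Over the 16 alternatives these counts ran from 4790 to 7785 and from 838 to 1657, and the signs of the genes called with 6 rats held wherever they were tested. Without the replicate block, which comes from the animal, 7069 genes were called and 1184 passed 2-fold. DESeq2 gave 365 higher and 580 lower in VTA past 2-fold, against 523 and 716. Leaving out 1 rat gave 6352 to 7149 called and 1076 to 1450 past 2-fold. Females alone gave 297 genes higher in VTA past 2-fold. For the sex difference, 0 genes were called; with no filter on low counts 62 were called, and leaving out 1 rat gave 0 to 1. The mitochondrial difference of -6.20 points kept its sign, at -7.13 to -5.47 with 1 rat left out, where p could not go below 0.0625, and at -4.68 in males and -7.72 in females alone, where it could not go below 0.25. Without the replicate block its exact permutation p was 0.00216. ENSRNOG00000017302 was not called in females alone (log2 fold change 8.00, adjusted p = 0.127). The filter met in any 3 libraries was added after rat L2 was seen. Changes under a few CPM rest on few counts, with 3.54 M in the shallowest library.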
